A study of Mus musculus with 6 samples.

Results

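The genes described here encode the enzymes and chaperones that hydroxylate, fold and trim procollagen. They were taken from a list of 10 genes grouped by function (P4ha1, P4ha2, P4ha3, Plod1, Plod2, Plod3, Serpinh1, Crtap, Fkbp10 and Pcolce), which was drawn up with earlier results of these data known. Of these 10, 9 were measured by a probe set with exactly 1 gene symbol, out of 19935 genes measured that way, and Fkbp10 was not analysed here. Each gene had a value on 6 single-channel Affymetrix arrays of sorted osteoblastic cells, 4 of wild-type origin (WT) and 2 of Y1-deficient origin (Y1KO), Y1 being a receptor for neuropeptide Y. The cells of both groups came from male mice whose GFP transgene is under a 3.6-kb rat alpha1(I)-collagen promoter. Marrow stromal cells of femora and tibias were grown for 7 days, and the GFP-positive cells were sorted. The gate therefore selected cells in which a collagen promoter was active, in both genotypes. The sources used here do not give age, strain or how the receptor was deleted. They also do not say whether each array is a separate animal, and the spread behind the p-values may therefore be technical.

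Procollagen chains are modified in the endoplasmic reticulum (ER) before they fold. Prolyl 4-hydroxylases (P4ha genes with the shared beta subunit P4hb) hydroxylate prolines, which makes the triple helix stable at body temperature, and lysyl hydroxylases (Plod genes) hydroxylate lysines, which later carry sugars and crosslinks. Chaperones such as Serpinh1 then hold the folded helix until export, and proteases outside the cell remove the propeptides. Loss of several of these genes in humans causes brittle bone disease, and bone-forming cells, which secrete large amounts of type I collagen, express them strongly.

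Of the 9 measured genes, 4 rose in Y1KO and 0 fell (limma adjusted p under 0.05), against 6.10% of all genes called higher and 6.64% called lower. Among the 7974 genes whose mean level lay above the 60th percentile, where all 9 enzymes also lie, 11.4% were called higher. The genes that rose were P4ha1, P4ha2, Plod2 and Serpinh1. Plod1 and Crtap were higher in both Y1KO arrays than in any WT array without passing the test, and P4ha3, Plod3 and Pcolce overlapped between the genotypes. In all, 6 of the 9 had both Y1KO arrays above every WT array, where 17.5% of all genes did and 34.8% did not overlap in either direction. At an unadjusted p under 0.05, 6 of the 9 were higher and 0 were lower, against 11.7% and 12.5% of all genes, which are also the shares to set beside each unadjusted count that follows. The median difference over the 9 was 0.40 on the log2 scale, against 0.01 over all genes. In these bulk samples a change in the share of a cell type and a change in RNA per cell cannot be told apart. The number of called enzymes was 2 without WT replicate 1, fell to 1 or 0 when Y1KO replicate 1 or 2 was omitted, and was 0 when the variance was not moderated.

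**Figure D1:**
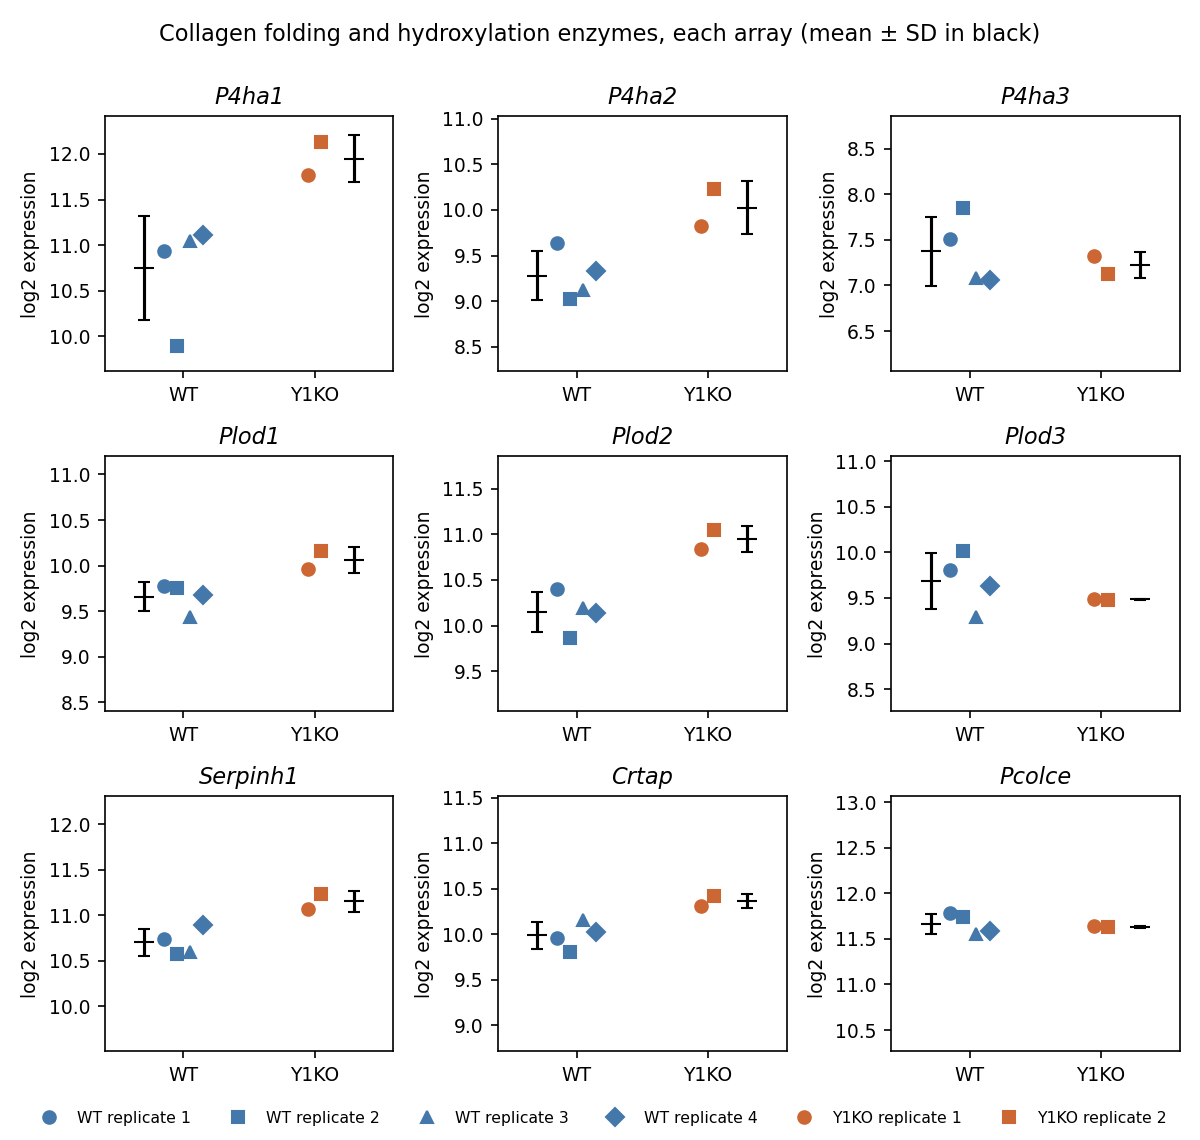
Log2 expression (y axis) of the 9 measured enzymes and chaperones on each of the 4 WT (blue) and 2 Y1KO (orange) arrays, 1 panel per gene with y axes of equal span and the group mean ± SD in black. Both Y1KO arrays lie above all WT arrays for P4ha1, P4ha2, Plod1, Plod2, Serpinh1 and Crtap and lie among the WT arrays for P4ha3, Plod3 and Pcolce.

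**Figure D2:**
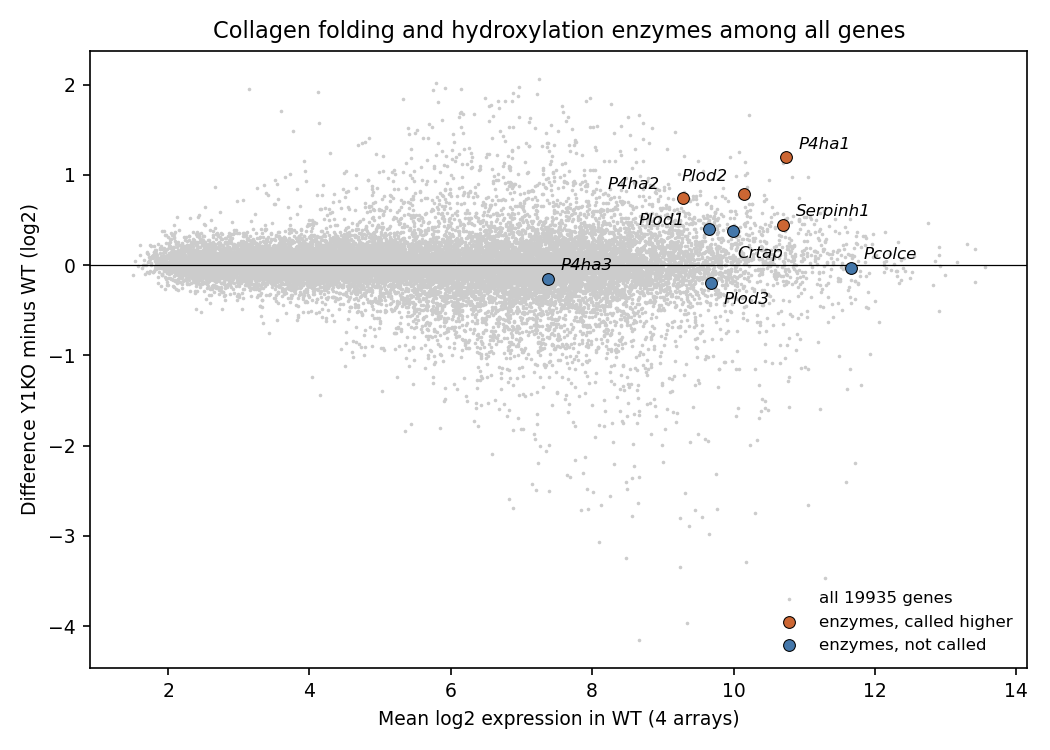
Difference between Y1KO and WT (y axis, log2) against the mean log2 expression in WT (x axis) for all 19935 genes (grey) and the 9 enzymes and chaperones (orange if called higher, blue if not called). The 4 called genes lie between 0.45 and 1.20, and all 9 lie in the upper part of the expression range.

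P4ha1 encodes the widely expressed catalytic subunit of prolyl 4-hydroxylase. Its log2 values (probe set 10363350) were 10.93, 9.90, 11.05 and 11.11 in WT, and 11.77 and 12.13 in Y1KO, in the order of the replicate numbers used throughout. Both Y1KO arrays were above all WT arrays, and WT replicate 2 was the lowest array. P4ha1 rose 2.30-fold (95% interval 1.41 to 3.75), from 10.75 ± 0.57 (SD, n = 4) to 11.95 ± 0.25 (SD, n = 2), with a limma adjusted p of 0.0373. Without WT replicate 2 the difference was 0.92 in place of 1.20, with a limma adjusted p of 0.0027. P4ha1 was not called without moderation of the variance (adjusted p = 0.239). The call was lost without WT replicate 1 (adjusted p = 0.0546), without Y1KO replicate 1 (0.12) or 2 (0.284), with quantile normalization (0.0597) and with trend and robust variance options (0.121).

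P4ha2 encodes the second catalytic subunit, known from cartilage and bone cells. Its log2 values (probe set 10376074) were 9.63, 9.03, 9.13 and 9.33 in WT and 9.82 and 10.23 in Y1KO. The groups did not overlap, and WT replicate 1 was the WT array nearest to Y1KO. P4ha2 rose 1.68-fold (95% interval 1.26 to 2.23), from 9.28 ± 0.27 (SD, n = 4) to 10.03 ± 0.29 (SD, n = 2), with a limma adjusted p of 0.0278. It was not called with the replicate block (adjusted p = 0.106) or without moderation of the variance (0.189). The call was lost without WT replicate 3 (adjusted p = 0.06), WT replicate 4 (0.057), Y1KO replicate 1 (0.0572) or Y1KO replicate 2 (0.276).

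P4ha3, the third catalytic subunit, was not called. Its log2 values (probe set 10555323) were 7.51, 7.85, 7.08 and 7.06 in WT and 7.33 and 7.13 in Y1KO, so both Y1KO arrays lay inside the WT range. The difference was -0.15 (95% interval -0.63 to 0.33, limma adjusted p = 0.76) and turned to 0.01 without WT replicate 2. WT replicate 2, the lowest array for P4ha1 and P4ha2, was the highest for P4ha3.

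The stretch before the start site is shown for the 3 called genes with an entry in the RefSeq promoter table and for P4ha3, whose level did not pass the test. Of the listed genes that were not called and had an entry, P4ha3 alone held none of the letters marked below. The table (build GRCm38.p6) held 8 of the 10 listed genes, and Plod2 and Fkbp10 had no entry. Each sequence runs 5′ to 3′ on the strand of the gene and ends before the first annotated base of the gene. Capitals mark ACGTG or GCGTG on either strand (CACGT or CACGC on the other), the core of the element that hypoxia-inducible factors recognise; the P4ha1, P4ha2 and Plod2 genes are known targets of these factors.
P4ha1, chr10:59323046-59323196, plus strand: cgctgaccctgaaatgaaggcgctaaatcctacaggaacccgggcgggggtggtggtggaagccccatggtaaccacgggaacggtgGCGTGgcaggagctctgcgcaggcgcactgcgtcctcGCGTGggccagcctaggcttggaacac
P4ha2, chr11:54100674-54100923, plus strand: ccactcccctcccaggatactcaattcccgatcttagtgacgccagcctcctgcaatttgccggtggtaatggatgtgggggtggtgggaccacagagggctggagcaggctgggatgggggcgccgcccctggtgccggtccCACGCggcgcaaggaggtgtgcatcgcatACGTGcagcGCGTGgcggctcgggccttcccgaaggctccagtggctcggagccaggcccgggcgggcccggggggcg
P4ha3, chr7:100285270-100285488, plus strand: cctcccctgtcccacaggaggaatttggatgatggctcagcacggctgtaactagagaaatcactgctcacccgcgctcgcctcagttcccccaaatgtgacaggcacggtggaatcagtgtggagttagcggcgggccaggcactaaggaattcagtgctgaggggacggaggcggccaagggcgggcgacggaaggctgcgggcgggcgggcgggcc
Serpinh1, chr7:99353240-99353489, minus strand: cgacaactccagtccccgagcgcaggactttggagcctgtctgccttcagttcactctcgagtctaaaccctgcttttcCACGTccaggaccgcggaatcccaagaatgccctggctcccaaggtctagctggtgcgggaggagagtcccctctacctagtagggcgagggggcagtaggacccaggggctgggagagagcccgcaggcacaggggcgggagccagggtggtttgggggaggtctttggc

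In the 250 bases before the start site of the table, P4ha1 held 1 ACGTG and 2 GCGTG, of which the ACGTG falls after the printed piece. P4ha2 held 1 and 2, Serpinh1 1 and 0, and P4ha3 held 0 of each. Genes that were not called also held them: Plod3 1 and 3, Crtap 0 and 3, Plod1 0 and 1, and Pcolce 0 and 1. Over all 32851 windows of that length, 16.6% held ACGTG, 28.2% held GCGTG and 38.6% held either. These matches describe the letters of the window and were not tested against the expression values.

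Among the lysyl hydroxylases the clearest change was in Plod2, which hydroxylates the lysines of the collagen telopeptides, from which the stable crosslinks of bone form. Its log2 values (probe set 10587829) were 10.40, 9.87, 10.20 and 10.14 in WT and 10.84 and 11.05 in Y1KO. Both Y1KO arrays were above all WT arrays. Plod2 rose 1.73-fold (95% interval 1.38 to 2.17), from 10.15 ± 0.22 (SD, n = 4) to 10.95 ± 0.14 (SD, n = 2), with a limma adjusted p of 0.00834, the smallest among the 9 genes. The call was lost without Y1KO replicate 2 (adjusted p = 0.114) and without moderation of the variance (0.111).

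Plod1, which hydroxylates lysines within the triple helix, had log2 values (probe set 10518408) of 9.77, 9.76, 9.43 and 9.67 in WT and 9.96 and 10.16 in Y1KO. The groups did not overlap, but the difference of 0.40 (95% interval 0.13 to 0.68) had a limma adjusted p of 0.0646. It passed in 6 alternative settings: both filters on dim genes (0.046 and 0.0384), centring on array medians (0.0473) or on the median of the genes (0.0324), trend and robust variance options (0.0422) and array weights (0.0479). Plod3, which also transfers glucose to galactosylated hydroxylysine, read 9.81, 10.02, 9.29 and 9.63 in WT (probe set 10526520) and 9.49 and 9.48 in Y1KO. Both Y1KO arrays lay inside the WT range, and the difference was -0.20 (95% interval -0.60 to 0.20, limma adjusted p = 0.572). It was -0.09 without WT replicate 2, -0.33 without WT replicate 3 and -0.43 with the replicate block, none of which passed the test.

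Whether the isoform genes changed unequally was asked from the log2 ratio of 2 genes within each array, for the 6 pairs inside the P4ha and Plod families. The ratio of P4ha2 to P4ha3 was 0.90 higher in Y1KO than in WT, that of Plod2 to Plod3 1.00 higher and that of Plod1 to Plod3 0.60 higher. In these 3 pairs the Y1KO arrays lay beyond all WT arrays, with an exact permutation p of 0.0667 (two-sided), the smallest that 15 splits of the arrays allow, and 0.133 after adjustment over the 6 pairs. The ratio of P4ha1 to P4ha3 was 1.35 higher, also without overlap, with an exact permutation p of 0.133. The ratio of P4ha1 to P4ha2 differed by 0.45 (exact permutation p = 0.2). That of Plod1 to Plod2 differed by -0.39 (exact permutation p = 0.133), with both Y1KO arrays below all WT arrays. After adjustment the 3 larger p-values were 0.16, 0.16 and 0.2. With 4 against 2 arrays no pair could reach 0.05, so these p-values cannot decide whether the isoform genes changed unequally. Leaving out any 1 array kept the sign of all 6 differences, and the P4ha1 to P4ha3 difference ran from 0.91 to 1.63.

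**Figure D3:**
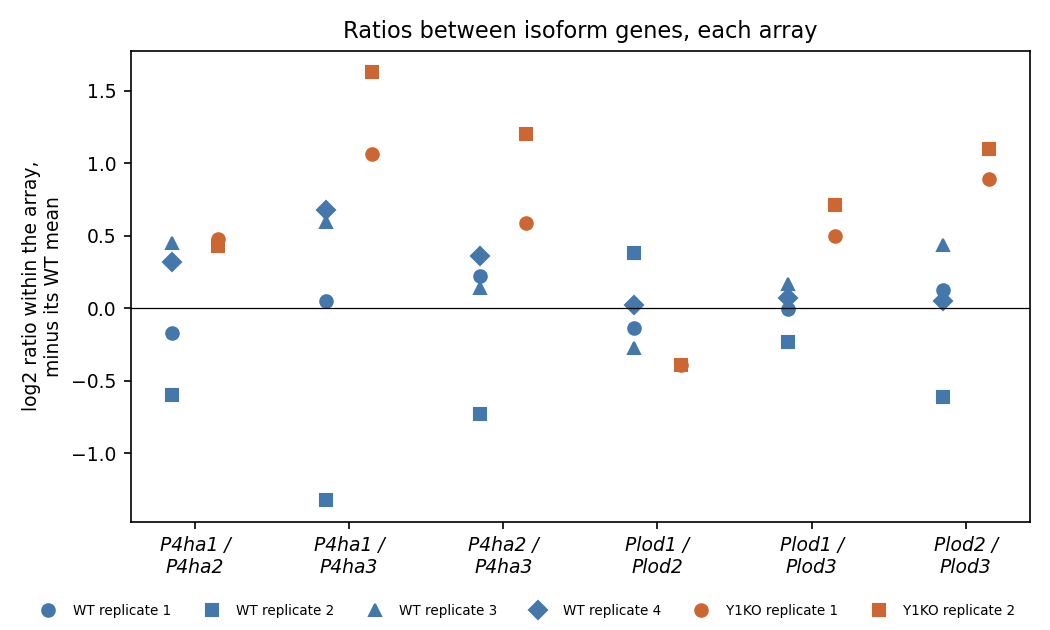
Log2 ratio of 2 isoform genes within an array, minus the mean of that ratio in WT (y axis), for the 6 pairs of P4ha and Plod genes (x axis), with WT arrays in blue and Y1KO arrays in orange. The Y1KO arrays lie above all WT arrays for the 4 pairs that have P4ha3 or Plod3 as the second gene, and WT replicate 2 is the lowest WT array in each of these.

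Serpinh1 encodes the collagen-specific ER chaperone that binds the folded triple helix. Its log2 values (probe set 10565794) were 10.74, 10.58, 10.60 and 10.90 in WT and 11.07 and 11.24 in Y1KO. The groups did not overlap, and WT replicate 4 was the highest WT array. Serpinh1 rose 1.36-fold (95% interval 1.14 to 1.64), from 10.70 ± 0.15 (SD, n = 4) to 11.15 ± 0.12 (SD, n = 2), with a limma adjusted p of 0.036. It was not called with the replicate block (adjusted p = 0.0593) or without moderation of the variance (0.15). The call was lost without any 1 array other than WT replicate 4 (adjusted p from 0.062 to 0.29) and with quantile normalization (0.0723).

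Crtap encodes the scaffold of the complex that 3-hydroxylates a proline of type I collagen. Its log2 values (probe set 10597413) were 9.96, 9.81, 10.16 and 10.02 in WT and 10.31 and 10.42 in Y1KO. Both Y1KO arrays were above all WT arrays, and the difference of 0.38 (95% interval 0.12 to 0.63) had a limma adjusted p of 0.0609. It passed in 7 alternative settings: without WT replicate 3 (0.0318), the highest WT array, with both filters on dim genes (0.0421 and 0.0343), with centring on array medians (0.0479) or on the median of the genes (0.0341), with trend and robust variance options (0.0377) and with array weights (0.025).

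Pcolce, a secreted protein that speeds the removal of the C-propeptide, did not pass the test. It read 11.78, 11.74, 11.55 and 11.58 in WT (probe set 10534862) and 11.64 and 11.63 in Y1KO. The difference was -0.03 (95% interval -0.25 to 0.19, limma adjusted p = 0.909), and its sign turned to 0.01 without WT replicate 1 and to 0.03 with arrays centred on the median of the genes.

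The order of the WT arrays was not the same from gene to gene. WT replicate 2 was the lowest WT array for 5 of the 9 genes (P4ha1, P4ha2, Plod2, Serpinh1 and Crtap) and the highest for P4ha3 and Plod3. WT replicate 3 was the lowest for Plod1, Plod3 and Pcolce. Y1KO replicate 2 was above Y1KO replicate 1 for 6 of the 9, which were the same 6 whose groups did not overlap, while 51.8% of all genes were higher in Y1KO replicate 2. The median SD within WT was 0.22 over the 9 genes and 0.12 over all genes. The profile most like that of P4ha1, the gene with the largest difference, was that of Bmp8a, a bone morphogenetic protein gene, with a root mean square distance of 0.07 between the WT-centred log2 values of the 6 arrays. Fam167a and the homeobox gene Dlx3 followed at 0.08 each. Their differences of 1.26, 1.27 and 1.27 on the log2 scale and their low value in WT replicate 2 follow from the way they were chosen, and are given as a description. A probe set for Bmp8a can share sequence with the related gene Bmp8b.

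Genes of the other steps of collagen biosynthesis came from 6 lists grouped by function, with 35 of 37 genes measured (Kdelr2 and Adamts2 were not analysed here). These lists, too, were drawn up with earlier results of these data known. Of the 35, 17 rose and 0 fell, with a median difference of 0.39, against 6.10% and 6.64% of all genes. Among genes above the 60th percentile of mean level, where most of the 35 lie, 11.4% were called higher and 11.4% lower. The lists of general ER folding genes and hypoxia targets, which are not steps of collagen biosynthesis, held 20 measured genes, and the 1 gene called in them fell. Without Y1KO replicate 1 or 2 the genes that rose numbered 9 and 3, and 3 rose without moderation of the variance.

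Of the 6 genes in the list of the beta subunit, the prolyl 3-hydroxylase family and Ppib, 4 rose and 0 fell, with a median of 0.60. At an unadjusted p under 0.05, 5 were higher and 0 lower. P3h1, the enzyme that works with Crtap, read 9.27, 9.09, 9.36 and 9.45 in WT and 10.04 and 10.16 in Y1KO. It rose 1.75-fold, from 9.29 ± 0.15 (SD, n = 4) to 10.10 ± 0.08 (SD, n = 2), with a limma adjusted p of 0.0031. P3h4, a scaffold related to Crtap, rose by 0.85 on the log2 scale (limma adjusted p = 0.0072), P3h2 by 0.91 (0.0084) and P3h3 by 0.39 (0.0464). The P3h3 call was lost whichever array was omitted. P4hb, the beta subunit shared by the prolyl 4-hydroxylases and itself a disulfide isomerase, read 12.02, 11.99, 11.85 and 12.04 in WT and 12.24 and 12.40 in Y1KO, with a difference of 0.34 (limma adjusted p = 0.0508). Ppib, the cyclophilin of the complex of Crtap and P3h1, differed by 0.18 (limma adjusted p = 0.231), so of these partners of Crtap only P3h1 was called. Without Y1KO replicate 1 or 2 the genes that rose in this list numbered 2 and 0.

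Of 6 measured genes in the list of FKBP-family and other collagen chaperones, 2 rose and 0 fell. At an unadjusted p under 0.05, 4 were higher and 1 was lower. The list also holds genes that do not encode a chaperone, among them Creb3l1, which rose, and Tmem38b, which was the lower one. Fkbp14, a prolyl isomerase of the ER, rose 1.70-fold, from 9.84 ± 0.13 (SD, n = 4) to 10.60 ± 0.08 (SD, n = 2), with a limma adjusted p of 0.00304. Creb3l1, an ER-bound transcription factor that drives Col1a1 in osteoblasts, read 10.34, 9.71, 10.35 and 10.26 in WT and 11.19 and 11.16 in Y1KO. It rose 2.01-fold with a limma adjusted p of 0.00722, and WT replicate 2 was again the lowest array. The 2 collagen galactosyltransferase genes were not called, with a difference of 0.29 for Colgalt1 (limma adjusted p = 0.0913) and 0.20 for Colgalt2 (0.33). With Y1KO replicate 1 omitted the Colgalt2 difference was 0.38, and with replicate 2 omitted it was 0.03. Of the pair, 1 was higher and 0 lower at an unadjusted p under 0.05. Without Y1KO replicate 1 or 2 the genes that rose in the chaperone list numbered 1 and 0.

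Of 9 genes for the large carriers that take procollagen out of the ER, 6 rose and 0 fell (6 and 0 at an unadjusted p under 0.05), with a median of 0.44. Sec24d, a cargo-binding subunit of the COPII coat, read 10.33, 10.16, 10.27 and 10.27 in WT and 10.93 and 10.94 in Y1KO. It rose by 0.68 on the log2 scale with a limma adjusted p of 0.00219, and stayed called whichever array was omitted. Its coat partners Sec23a, Sec31a and Sec13 rose by 0.77, 0.57 and 0.56 on the log2 scale, the procollagen receptor gene Mia3 by 0.44 and Tfg, which organises the exit sites, by 0.37, with limma adjusted p between 0.0055 and 0.0236. Without Y1KO replicate 1 or 2 the genes that rose in this list numbered 3 and 1.

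Outside the cell, the genes that trim the propeptides were called in part. Of 6 measured, 3 rose and 0 fell (3 higher and 1 lower at an unadjusted p under 0.05). Pcolce2, the relative of Pcolce, read 7.26, 7.51, 7.26 and 7.17 in WT and 8.24 and 8.51 in Y1KO. It rose 2.10-fold with a limma adjusted p of 0.0015, while Pcolce did not pass the test. Adamts14, an N-propeptidase, rose 2.50-fold, from 7.10 ± 0.42 (SD, n = 4) to 8.42 ± 0.30 (SD, n = 2), with a limma adjusted p of 0.00889, and its relative Adamts3 rose by 0.45. Bmp1, the C-propeptidase that Pcolce assists, differed by -0.04 (limma adjusted p = 0.842), with a sign that turned when Y1KO replicate 1 was left out (0.02) and with arrays centred on the median of the genes (0.02). Without Y1KO replicate 2, 1 gene of this list rose, and without WT replicate 2, 1 fell.

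**Figure D4:**
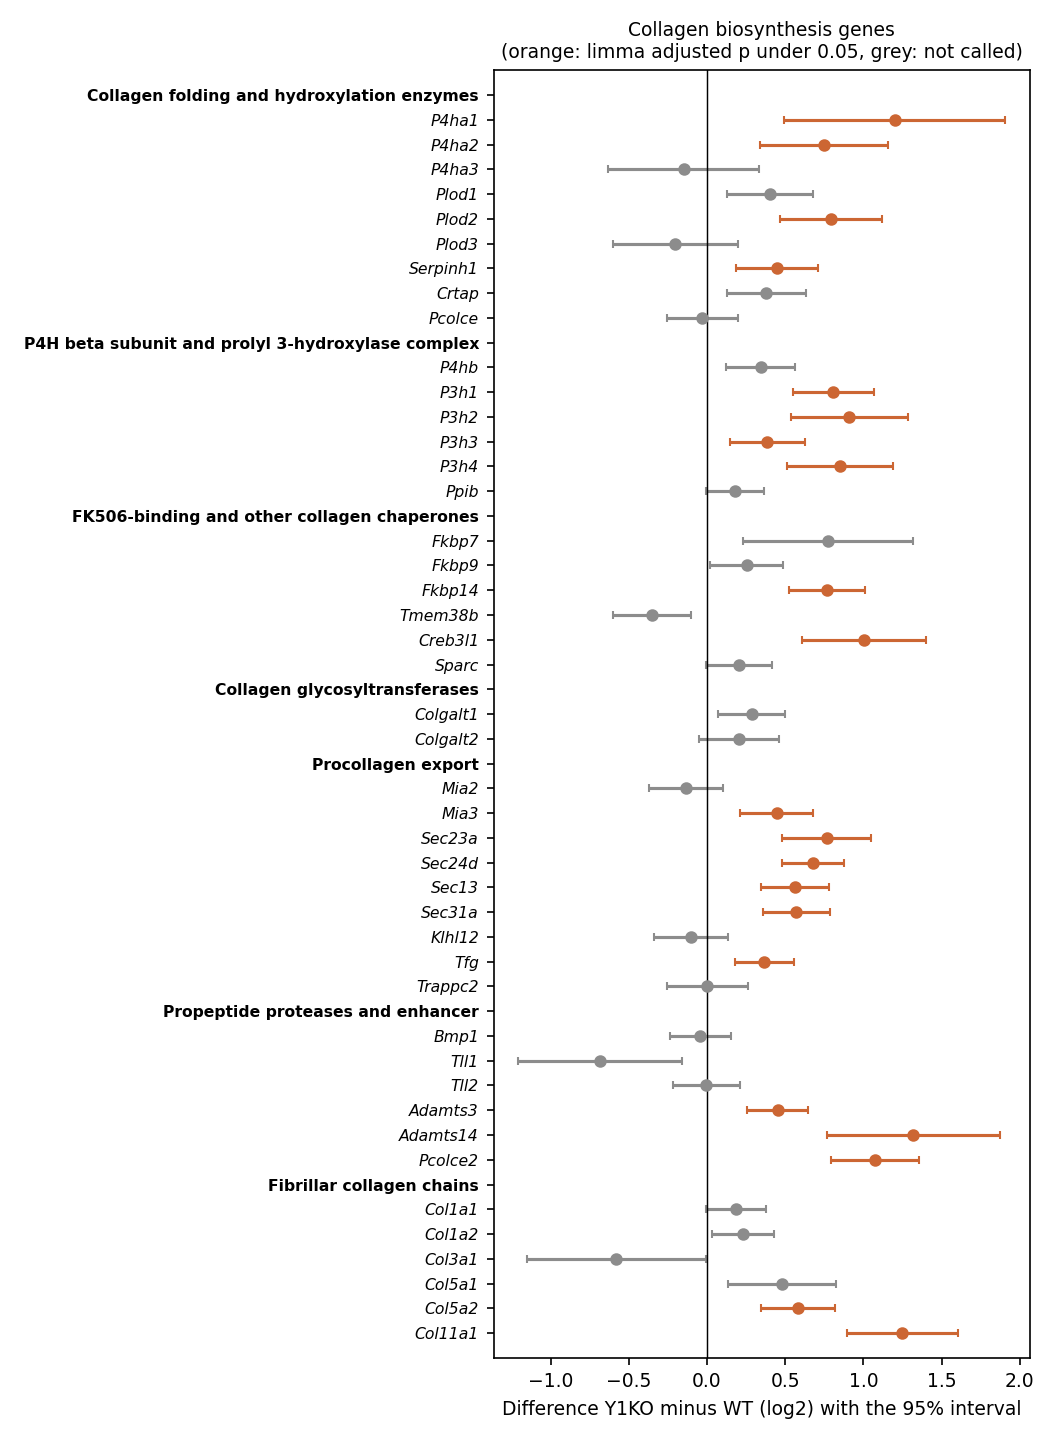
Difference between Y1KO and WT (x axis, log2) with the 95% interval of the limma fit for each measured gene of the enzyme and chaperone set and of 6 further lists of collagen biosynthesis (y axis), in orange where the adjusted p was under 0.05. The genes in orange include 4 of 6 in the list of the P4H beta subunit, the prolyl 3-hydroxylase family and Ppib, and 6 of 9 export genes. None of the plotted genes was called lower.

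Col1a1 and Col1a2, the chains of type I collagen, differed by 0.18 and 0.23 (limma adjusted p = 0.225 and 0.14), while Col11a1 rose by 1.25 (0.00203) and Col5a2 by 0.58 (0.0083), and Col3a1 was at -0.58 (0.199). For Col1a1 and Col1a2 both Y1KO arrays were above all WT arrays, as for 17.5% of all genes. Both genes lay at the 99.99th percentile of all genes or higher, and whether their signal was near saturation was not tested. Of the 6 fibrillar chain genes 2 rose and 0 fell (4 higher and 1 lower at an unadjusted p under 0.05), but 1 rose without Y1KO replicate 1, 1 rose without Y1KO replicate 2 and 1 fell without WT replicate 3.

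General ER folding genes and other hypoxia targets were set beside the collagen enzymes. Of 9 general folding genes, 0 rose and 0 fell by limma (4 higher and 0 lower at an unadjusted p under 0.05), with differences from 0.02 to 0.32. The largest was that of Hspa5, the main ER Hsp70 chaperone (limma adjusted p = 0.0987), which passed with arrays centred on the median of the genes (0.0455), and Hsp90b1 differed by 0.23 (0.163). Of 11 hypoxia targets, 0 rose and 1 fell (2 higher and 1 lower at an unadjusted p under 0.05). Adm, a vasoactive peptide gene, fell by 1.37 on the log2 scale (limma adjusted p = 0.0237), and was no longer called when Y1KO replicate 1 (0.133) or 2 (0.176) was omitted, with trend and robust variance options (0.0753) and without moderation (0.202). Without WT replicate 2, 1 hypoxia target rose. The mean of the hypoxia list relative to WT was 0.37, -0.22, -0.15 and 0.00 in the WT arrays and 0.00 and 0.24 in the Y1KO arrays, so the genotypes overlapped. On the same scale the mean of the 9 collagen enzymes was 0.14, -0.08, -0.08 and 0.02 in WT and 0.33 and 0.47 in Y1KO. The hypoxia mean includes Adm, whose fall was the largest difference in that list. Of the 11 hypoxia differences 9 were positive, as were 10285 of the 19935 genes. The median of the hypoxia list was 0.39, -0.22, -0.12 and 0.04 in WT and 0.12 and 0.25 in Y1KO, also with overlap. A link between hypoxia and the collagen enzymes was not tested.

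**Figure D5:**
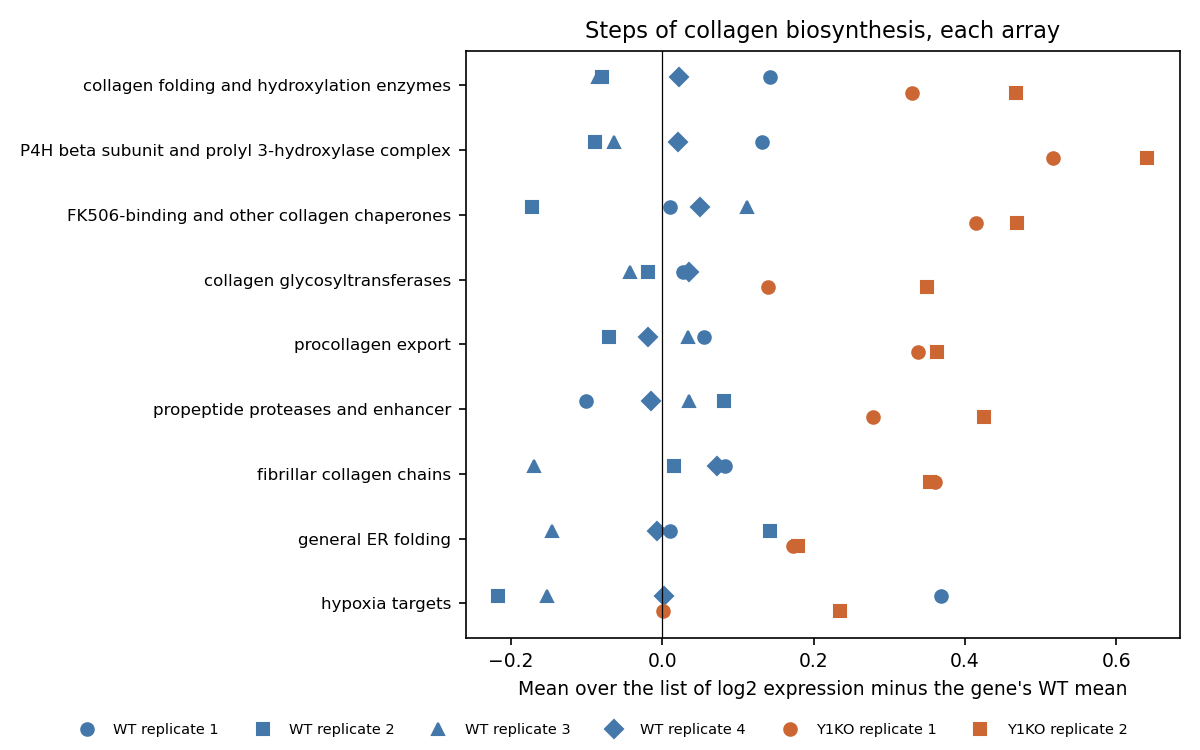
Mean over each list of log2 expression minus the WT mean of the gene (x axis) for the collagen enzymes and chaperones and 8 related lists (y axis), with each of the 4 WT (blue) and 2 Y1KO (orange) arrays as a point. The Y1KO arrays lie to the right of all WT arrays in each list other than hypoxia targets, where WT replicate 1 is the highest, and the general ER folding arrays are close, at 0.14 in WT replicate 2 against 0.17 and 0.18 in Y1KO.

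Other features moved with genotype in the same arrays. The targeted gene, Npy1r, read 3.11, 2.84, 2.78 and 3.00 in WT and 2.89 and 2.83 in Y1KO, near the bottom of the range, so it checks the genotype labels neither way. The 7 measured osteoblast markers stood at the 97.7th percentile of all genes or higher, among them Col1a1, Sp7, Alpl and Ibsp. By limma 0 of 7 were called (4 higher and 0 lower at an unadjusted p under 0.05). Both Y1KO arrays were above all WT arrays in each of the 7, as for 17.5% of all genes. Their differences ran from 0.18 to 1.66, the largest in Dmp1 (limma adjusted p = 0.0789). The log2 of their summed signal was 15.15 to 15.42 in WT and 15.65 in both Y1KO arrays. Relative to WT, their mean was 0.49 in both Y1KO arrays. Of 10 macrophage markers 6 rose and 0 fell, against 6.10% and 6.64% of all genes. The log2 of their summed signal, in which the brightest gene weighs most, was 9.08 to 9.47 in WT and 9.77 to 10.42 in Y1KO. That gene was Lyz2, which rose by 0.97 on the log2 scale. The uncalled Itgam, Ptprc, Cd14 and Fcgr1 differed by -0.07 to 0.15. Of 10 smooth muscle and pericyte markers 0 rose and 8 fell (summed signal 13.73 to 14.02 in WT, 12.92 to 13.03 in Y1KO). The brightest of them, Acta2, fell by 0.50 on the log2 scale. The uncalled Rgs5 and Des differed by -1.31 and 0.52, and for Des both Y1KO arrays were above all WT arrays. Of 6 adipocyte markers 0 rose and 3 fell (summed signal 10.10 to 10.67 in WT, 8.44 to 8.45 in Y1KO). The brightest adipocyte marker, Lpl, fell by 2.71 on the log2 scale. Adipoq, Plin1 and Cidec, with differences of -0.93, -0.03 and -0.02, were not called. All 13 measured cell cycle genes fell (12.43 to 12.61, 11.51 to 11.70). None of the 6 endothelial markers was called by limma (0 at an unadjusted p under 0.05), and the summed signal was 6.72 to 7.01 in WT and 6.80 to 6.83 in Y1KO. An array has no true 0, and the pan-leukocyte gene Ptprc had a WT mean of 4.18 ± 0.06 (SD, n = 4) and a Y1KO mean of 4.33 ± 0.01 (SD, n = 2). The part of these cells and of cell division in the differences of the collagen enzymes was not tested.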

How the data were processed

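Values were used as deposited, on the log2 scale, for 28815 probe sets on each array. Per the submitters' processing notes, RMA and limma were used; the sources used here give neither versions nor settings. Array medians lay between 5.30 and 5.37, and the values were not normalized again. Precision is limited by the number of arrays. By the platform annotation, 21780 had 1 symbol, 1605 several and 5430 none listed. Of the former, 21689 matched RefSeq (GRCm38.p6) by gene identifier. The probe set with the highest mean stood for each of 998 genes with several, which left 19935 genes.

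Y1KO and WT were compared with limma (version 3.58.1, under R 4.3.3) by lmFit and eBayes over all 6 arrays with genotype as the only term, two-sided, with Benjamini-Hochberg adjustment over all 19935 genes and a threshold of 0.05, and the script was tested on simulated data. "Rose" and "fell" are used for called genes. Differences are Y1KO minus WT in log2 units and understate changes near background. Intervals cover 95%. The genes and lists were chosen with earlier results of these data known. Named genes were the listed enzymes, P4hb, P3h1, Ppib, Colgalt1 and Bmp1 as direct partners, each called gene of a pathway list (or the 2 of smallest p), and the 3 genes most like the member with the largest difference. Col1a1, Col1a2, Col3a1 and the marker genes given by name fall outside this rule and were picked with their values known. Alternative settings were quantile normalization, 2 ways of centring, filters at the 40th and 60th percentile, averaging a gene's probe sets, other variance models, array weights, a replicate block and leaving out each array.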

Additional observations from a re-analysis of the deposited data

Results flagged for a closer look

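Within the 4 WT arrays, 3 of the 34 genes tested had an array far from the others, by the gap to its nearest neighbour divided by the whole range (Dixon's test at 95%). Chance flags about 1 in 20 such groups. For P4ha1 the ratio was 0.851: WT replicate 2 read 9.90, against 10.93 to 11.11 in the other WT arrays. For Creb3l1 it was 0.852, with WT replicate 2 at 9.71 against 10.26 to 10.35. For Colgalt1 it was 0.926, with WT replicate 3 at 9.99 against 10.17 to 10.18.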

How the results depend on the processing

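The count of all called genes was 344 without moderation of the variance, in place of 2541, and 487 to 2462 when 1 array was left out. The called enzymes numbered 2 with quantile normalization, 2 with the replicate block and 0 without moderation, in place of 4, and 0 to 3 without 1 array. They numbered 6 with both filters, both ways of centring and array weights, and 5 with trend and robust options. The genes of the 8 related lists that rose numbered 3 without moderation, in place of 17, and 3 to 18 without 1 array. Those that fell numbered 2 with the filter at the 60th percentile, 0 with trend and robust options, 0 without moderation and 3 with the replicate block, in place of 1, and 0 to 2 without 1 array. Higher genes made up 47.9% of all calls. They made up 60.5% with arrays centred on the median of the genes, a setting added after seeing the data, 42.4% with the replicate block, 40.7% without moderation, 39.4% without Y1KO replicate 1 and 31.2% without Y1KO replicate 2. Signs turned for P4ha3 (-0.25 to 0.0093 without 1 array, the latter without WT replicate 2), Pcolce (-0.067 to 0.0094, the latter without WT replicate 1, and 0.03 with arrays centred on the median of the genes) and Bmp1 (-0.10 to 0.0154, the latter without Y1KO replicate 1, and 0.0169 with that centring). The causes were not tested. Replicate numbers 1 and 2 are shared by the genotypes, and the sources used here do not say whether same-numbered samples were handled together. Over all genes the correlations of same-numbered deviations from the group mean were 0.0127 and -0.204. With 2 Y1KO arrays their deviations mirror each other, so these values cannot decide whether the samples were paired. With the replicate block, P4ha2 (adjusted p = 0.106) and Serpinh1 (0.0593) lost their calls among the enzymes, and 2181 genes were called. Colgalt2 was removed by both filters and Adamts3 by the stricter one, so neither has a value there.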

Other observations

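Of the 11 hypoxia targets, 6 had WT replicate 2 as the lowest WT array, as P4ha1 did, 4 had WT replicate 3 and 1 had WT replicate 4, while WT replicate 2 was the highest for Adm. Ndrg1 and Bnip3 are given as examples of the 6 and were chosen after their values were seen. Ndrg1, a stress-response gene, read 8.92, 7.44, 8.53 and 8.78 in WT and 9.15 and 9.51 in Y1KO, a difference of 0.91 (limma adjusted p = 0.154). Bnip3, a mitophagy receptor gene, read 9.19, 7.68, 8.28 and 8.47 in WT and 8.71 and 9.52 in Y1KO, a difference of 0.71 (limma adjusted p = 0.293). WT replicate 2 was the lowest in both, and in Bnip3 the genotypes overlapped. The low value in WT replicate 2 was not particular to hypoxia targets. Relative to WT, the mean of the 7 measured osteoblast markers was 0.04, -0.38, 0.19 and 0.15 in the WT arrays. That of the hypoxia list was 0.37, -0.22, -0.15 and 0.00.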
